A study of Homo sapiens with 16 samples.

Results

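The lysyl oxidase family has 5 genes in the human genome, LOX, LOXL1, LOXL2, LOXL3 and LOXL4, and open chromatin at all 5 was followed in a breast cancer cell line grown on soft and on stiff gel. Every ATAC-seq peak whose summit lay in the body of one of these genes, or within 50 kb of it (GRCh38), was collected from 4 deposited peak lists, and overlapping peaks of different lists were merged into regions. This gave 81 regions of the 164016 in all 4 lists: 10 at LOX, 21 at LOXL1, 19 at LOXL2, 15 at LOXL3 and 16 at LOXL4. Listed peaks were assigned to a gene by position alone and not by pileup, width or q value. The genes and rules themselves were set with earlier results of these data known. The gene bodies lie at chr5:122063195-122078259 (LOX, minus strand, gene ID 4015), chr15:73926462-73952136 (LOXL1, plus strand, 4016), chr8:23296897-23404120 (LOXL2, minus strand, 4017), chr2:74532258-74555702 (LOXL3, minus strand, 84695) and chr10:98247690-98268194 (LOXL4, minus strand, 84171).

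Lysyl oxidases are copper enzymes, largely secreted, that oxidise lysine side chains of collagen and elastin so that the fibres become covalently crosslinked. Crosslinking stiffens the extracellular matrix, and in breast tumours the family is known for its links to matrix stiffening, hypoxia and metastasis. LOX and LOXL1 carry a propeptide and act mainly on fibrillar collagen and elastin, whereas LOXL2, LOXL3 and LOXL4 form a second branch with scavenger receptor domains, and nuclear roles have been described for LOXL2 and LOXL3.

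MDA-MB-231 is an established, mesenchymal line of human breast adenocarcinoma, labelled wild type in all 16 samples. Cells were grown on collagen-coated polyacrylamide gels of 1 kPa (soft) or 308 kPa (stiff), and selection consisted of repeated passage, about every 7 days for 75 days, on gel of 1 stiffness. The 4 groups, with 4 samples each, were ancestral on soft, ancestral on stiff, selected on soft and selected on stiff, as labelled; values of 4 lists below keep this order. The series' own question was how soft-selected cells differ from ancestral cells when both are on soft gel, and the labels do not state on which gel the cells called selected on stiff had been selected. All groups share the cell line and the collagen coating.

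The promoters of LOX, LOXL4 and LOXL3 are shown because their start regions are among those the results turn on: LOX has the most matches to 1 of the motifs searched, LOXL4 the highest start peak, and LOXL3 an alternative start. Promoter sequences were matched for 4 of the 5 genes, LOX, LOXL1, LOXL3 and LOXL4, in RefSeq on GRCh38.p14. Each run gives the 250 bases before the start, 5′ to 3′ on the gene's strand, and capitals mark matches on either strand to ACGTG (the core of the hypoxia response element) or GGAATG (bound by TEAD factors). The LOX run lies at chr5:122078260-122078509 on the minus strand, the LOXL3 run at chr2:74553943-74554192 on the minus strand and the LOXL4 run at chr10:98268195-98268444 on the minus strand.
LOX: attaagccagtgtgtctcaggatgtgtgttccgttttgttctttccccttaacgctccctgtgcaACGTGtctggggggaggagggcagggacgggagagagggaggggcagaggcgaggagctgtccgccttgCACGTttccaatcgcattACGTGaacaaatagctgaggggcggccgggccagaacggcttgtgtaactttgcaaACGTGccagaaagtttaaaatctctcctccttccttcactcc
LOXL3: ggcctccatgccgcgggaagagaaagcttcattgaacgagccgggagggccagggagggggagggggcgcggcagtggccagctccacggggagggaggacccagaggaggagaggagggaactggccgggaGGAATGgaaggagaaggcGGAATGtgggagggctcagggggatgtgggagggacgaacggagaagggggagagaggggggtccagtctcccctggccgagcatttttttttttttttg
LOXL4: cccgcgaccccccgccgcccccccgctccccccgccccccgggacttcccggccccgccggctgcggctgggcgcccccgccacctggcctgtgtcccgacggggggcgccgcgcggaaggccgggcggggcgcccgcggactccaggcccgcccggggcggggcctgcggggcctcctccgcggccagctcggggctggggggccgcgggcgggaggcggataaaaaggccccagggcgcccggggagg
The LOX window holds 4 matches to ACGTG, a motif found at least once in 18.5% of the 35116 promoter windows of the same length and at least 4 times in 0.669% of them. The LOXL3 window holds 2 matches to GGAATG, which 11.9% of windows hold at least once and 0.94% at least 2 times. The LOXL4 window has a GC content of 86.4%, above that of 99.8% of windows, whose median is 58.0%, while the LOX window has 55.2%. TGANTCA (AP-1, in 6.57% of windows) and TATAAA (in 10.7%) matched in none of these 3 windows. CCAAT (in 32.0%) matched 1 time, in the LOX window, and the E-box CANNTG (in 61.8%), which can overlap ACGTG, 1 time, in the LOXL4 window. A match is a description of the letters and not a site of binding.

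Each group is represented by 1 peak list, so replicate error cannot be estimated and no test was possible. How the 4 samples of a group entered its list is not given in the sources used here. The measure is the pileup, the number of fragments over a peak's summit, divided by the median pileup of its own list, called the level below. The lists held 109578 to 129755 peaks. Median pileups were 111 and 132 in the ancestral lists (soft, stiff) but 51 and 56 in the selected ones, and the lowest listed peak stood at 0.279 and 0.28 of the median in the ancestral lists but at 0.529 and 0.464 in the selected ones. A region of a low level could therefore be listed in ancestral cells and fall under the limit in selected cells. Intervals given for levels and ratios are 95% exact intervals and cover counting error only. Peak numbers were skipped 1107 to 1311 times a list, and no skipped number fell in any of the 5 windows; the nearest lay 1367 kb from LOXL1. Of 8 marker genes of the line, 6, 6, 7 and 7 had a peak at the start. The missing ones, AXL and CD44, lay at skipped numbers. Markers of other cell types also had start peaks: 5, 6, 6 and 5 of 8 luminal genes (none at ESR1 and FOXA1 in any list), 4 of 6 fibroblast genes in every list (none at DCN and LUM), 2, 2, 3 and 2 of 5 immune genes (none at PTPRC and CD3D) and 0, 0, 1 and 1 of 4 endothelial genes. The median levels of those with a peak were 3.05 to 3.70 for the fibroblast genes, 2.21 to 3.15 for the luminal genes, 5.41 to 7.1 for the immune genes and 0.643 to 0.667 for the endothelial gene, against 6.16 to 8.75 for the markers of the line. Their part in the results was not tested.

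All 5 genes had a peak at the start in all 4 lists, and LOXL4 stood highest in each. At LOX, whose start region is chr5:122076091-122079024 and covers the first part of the gene, the pileup was 950 and 1349 in ancestral cells (soft gel, stiff gel) and 414 and 500 in selected cells. As levels these are 8.56 (95% exact interval 8.02 to 9.12), 10.2 (9.68 to 10.8), 8.12 (7.35 to 8.94) and 8.93 (8.16 to 9.75). On this scale the 4 lists lay close together, although the raw pileups differed with the lists' medians. The peak was 2750 to 2934 bp wide and stood at the 55.0 to 59.7 percentile of the 13030 genes with a start peak in all lists. LOX was near the middle of the starts in this cell line.

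LOXL1 (chr15:73925778-73928984, a region it shares with the start of the antisense gene LOXL1-AS1) had pileups of 685, 1099, 322 and 427, or levels of 6.17, 8.33, 6.31 and 7.63. Both soft lists were below both stiff lists. LOXL2 was read at its upper annotated end (chr8:23402377-23404873), and its pileups of 347, 614, 200 and 285 gave levels of 3.13, 4.65, 3.92 and 5.09. This was the lowest of the 5 in the first 3 lists. The main start region of LOXL3 (chr2:74553219-74556050), which also holds a start of DOK1, had pileups of 522, 755, 243 and 281 and levels of 4.70, 5.72, 4.77 and 5.02. The second LOXL3 start (chr2:74548481-74550243) was lower in every list, at 1.76, 2.55, 1.41 and 2.09.

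At LOXL4 (chr10:98265883-98270958) the pileup was 1861, 2505, 602 and 849, and the level 16.8 (16.0 to 17.6), 19.0 (18.2 to 19.7), 11.8 (10.9 to 12.8) and 15.2 (14.2 to 16.2). Both selected lists were below both ancestral lists; the interval of the selected soft list lay below the other 3, while those of selected stiff and ancestral soft overlapped. Among genes with a start peak in all lists it stood at percentiles of 86.9 and 86.3 in ancestral cells and 73.9 and 77.7 in selected cells. The order LOXL4, LOX, LOXL1, LOXL3, LOXL2 held in 3 lists. In selected cells on stiff gel LOXL2 (5.09, interval 4.52 to 5.72) and LOXL3 (5.02, interval 4.45 to 5.64) exchanged places, within counting error. The plot of start levels shows the 5 genes side by side.

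**Figure D1:**
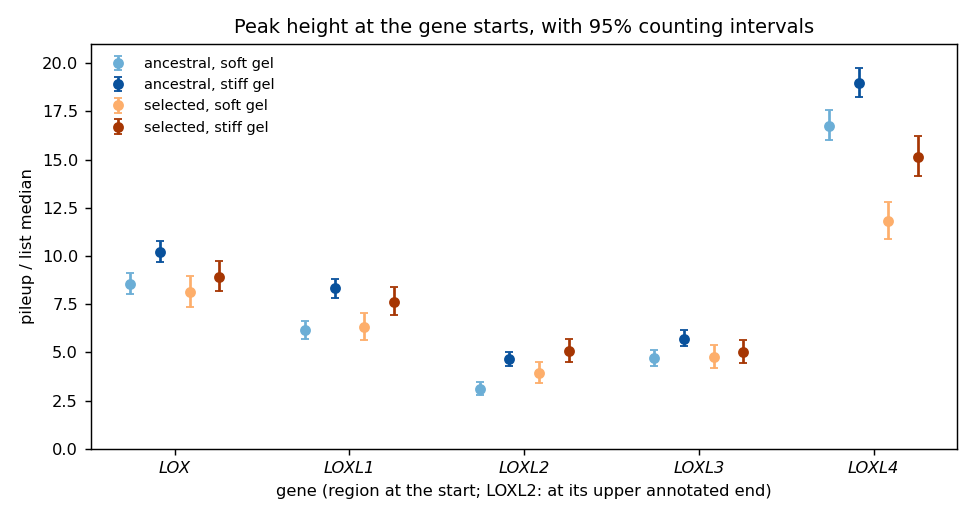
Pileup over list median (vertical axis, linear, from 0) of the region at each gene's start, or at the upper annotated end of LOXL2, in the 4 peak lists; points are single lists and bars are 95% exact counting intervals. LOXL4 is highest in every list and is the gene whose selected lists (11.8 and 15.2) lie furthest below the ancestral ones (16.8 and 19.0).

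LOX had few regions beside its start, and 3 of its 10 were listed in ancestral cells on both gels and never in selected cells. The most prominent, chr5:122120867-122121334, lies 42.8 kb upstream of the start within the annotated antisense gene ZNF474-AS1. Its pileup was 263 (soft gel) and 350 (stiff gel) in ancestral cells, levels of 2.37 and 2.65, with deposited −log10 q values of 211 and 291. No selected list has a peak there. At the same level it would have had pileups of 121 (soft gel) and 149 (stiff gel) in selected cells, against lowest listed pileups of 27 and 26. Of 4454 regions with levels from 2 to 3 in both ancestral lists, 73, or 1.64%, lacked a peak in both selected lists. By the lower of its 2 levels it ranked 294th of the 10476 regions listed in both ancestral lists only.

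This upstream LOX peak was also narrow, at 311 and 468 bp. Of the 35818 peaks with a level of at least 2 in the ancestral soft list, 0.014% were at most as wide, and of the 38889 in the ancestral stiff list, 0.231%. Whether its shape bears on its absence from the selected lists was not tested. The next region, chr5:122121863-122122655, was listed in all 4 lists at 0.847, 0.985, 0.726 and 0.696. Further out, chr5:122125983-122126570 was again listed in ancestral cells only, at 1.27 and 1.31, where 64.8 and 73.4 would have been the pileups at the same level. Of 12903 regions with levels from 1 to 2 in both ancestral lists, 813, or 6.30%, lacked both selected peaks. The third, chr5:122092091-122092446, had levels of only 0.432 and 0.515, and its pileup of 22.1 at the same level in selected cells on soft gel is below the lowest listed (27), while that on stiff gel, 28.9, is above it (26). A region 21.1 kb upstream of the start (chr5:122098842-122099779) was present throughout, at 2.06, 2.24, 1.71 and 1.95.

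LOXL1 had the densest neighbourhood and the largest share of regions listed in all 4 lists, 18 of 21, beside 43.7% of all regions. None was listed in ancestral cells only. In 3 of the 4 lists the highest level of any region of the family was found 30.2 kb from the LOXL1 start, beyond the gene's end, at chr15:73955557-73957818. There the pileup was 2201, 3103, 1081 and 1148, and the level 19.8, 23.5, 21.2 and 20.5. The site overlaps no annotated gene, and in selected cells on stiff gel a region inside LOXL2 stood higher, at 21.9, as did one at AUP1 and HTRA2 in the LOXL3 window, at 21.7. A region at the end of LOXL1 (chr15:73950449-73953863) was equally steady, at 7.51, 7.99, 8.10 and 7.98. Inside the gene, chr15:73940402-73942524 was not, at 1.21, 2.24, 1.51 and 1.98. Its log2 ratio of soft to stiff gel in ancestral cells, −0.89, was the family's lowest and at the 1.42 percentile of all regions. Upstream, within TBC1D21, chr15:73897142-73898444 stood at 7.05, 11.3, 6.29 and 7.64, highest in ancestral cells on stiff gel. The third strong region, chr15:73981615-73984116 in STOML1, had levels of 12.1, 16.3, 11.3 and 13.6. The region listed in both selected lists only, chr15:73922605-73923037 upstream of the start, was low, at 0.765 and 0.679, and chr15:73954696-73955035 was listed in selected cells on stiff gel alone, at 0.536.

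LOXL2, a collagen crosslinking enzyme also linked to epithelial-mesenchymal transition, is the longest of the genes at 107224 bp, and 14 of its 19 regions overlap its body. The strongest was inside the gene, at chr8:23343235-23346041, with pileups of 2037, 2576, 1080 and 1227 and levels of 18.4, 19.5, 21.2 and 21.9. It was more than 4 times as high as the region at the gene's upper end in every list. Upstream, chr8:23409608-23412198 stood at 5.96, 9.39, 5.33 and 7.27, lower in both soft lists. Listed in ancestral cells only were chr8:23326801-23327943, at 1.08 and 1.34, and chr8:23335845-23336511, at 1.47 and 1.26, both within the gene. At the same levels these would have had pileups of 55.1 to 75.1 in the selected lists. A further 3 regions of the body were absent from the selected soft list alone, and 1 of them, chr8:23300687-23301646, had a level of 1.28 in ancestral cells on soft gel.

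LOXL3 lies among 9 other protein-coding starts, so most of its regions belong to neighbours. The strongest, chr2:74528922-74531380, holds the starts of AUP1 and HTRA2 and had levels of 17.6, 18.6, 19.9 and 21.7. Within LOXL3 itself, chr2:74535801-74536765 was listed in selected cells only, at 0.647 and 0.786. The 2 LOXL3 start regions were the only ones of its body listed in all 4 lists.

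LOXL4, the gene with the highest start, had its next regions in the first part of its body and far upstream. Exon positions were not used here, so no region is placed in an exon or intron. The region chr10:98260719-98265146, 5.3 kb into the gene, stood at 7.31, 8.21, 5.57 and 6.91. Upstream, chr10:98314120-98315264 had levels of 5.94, 6.56, 4.67 and 4.75 and chr10:98307682-98310406 of 5.14, 5.78, 4.43 and 5.29. At both of these outer regions and at the start, the selected soft list was the lowest of the 4. In the later part of the gene the order turned: the broad region chr10:98254427-98260361 had levels of 0.387 and 0.485 in ancestral cells and of 1.06 and 1.00 in selected cells, on pileups of 43, 64, 54 and 56. Regions listed in ancestral cells only numbered 3, and the highest, chr10:98293643-98294506, had levels of 1.02 and 1.06. The others, chr10:98285359-98285715 and chr10:98253314-98253759, would at the same level have had 27.1 and 16.5 on soft gel, where the lowest listed pileup is 27. On stiff gel they would have had 22.5 and 17.0, where it is 26. Listed in selected cells on soft gel alone were 3 regions, chr10:98272130-98272818, chr10:98286656-98287076 and chr10:98311065-98311626, at 0.824, 0.569 and 0.569. The map of all 81 regions shows these positions.

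**Figure D2:**
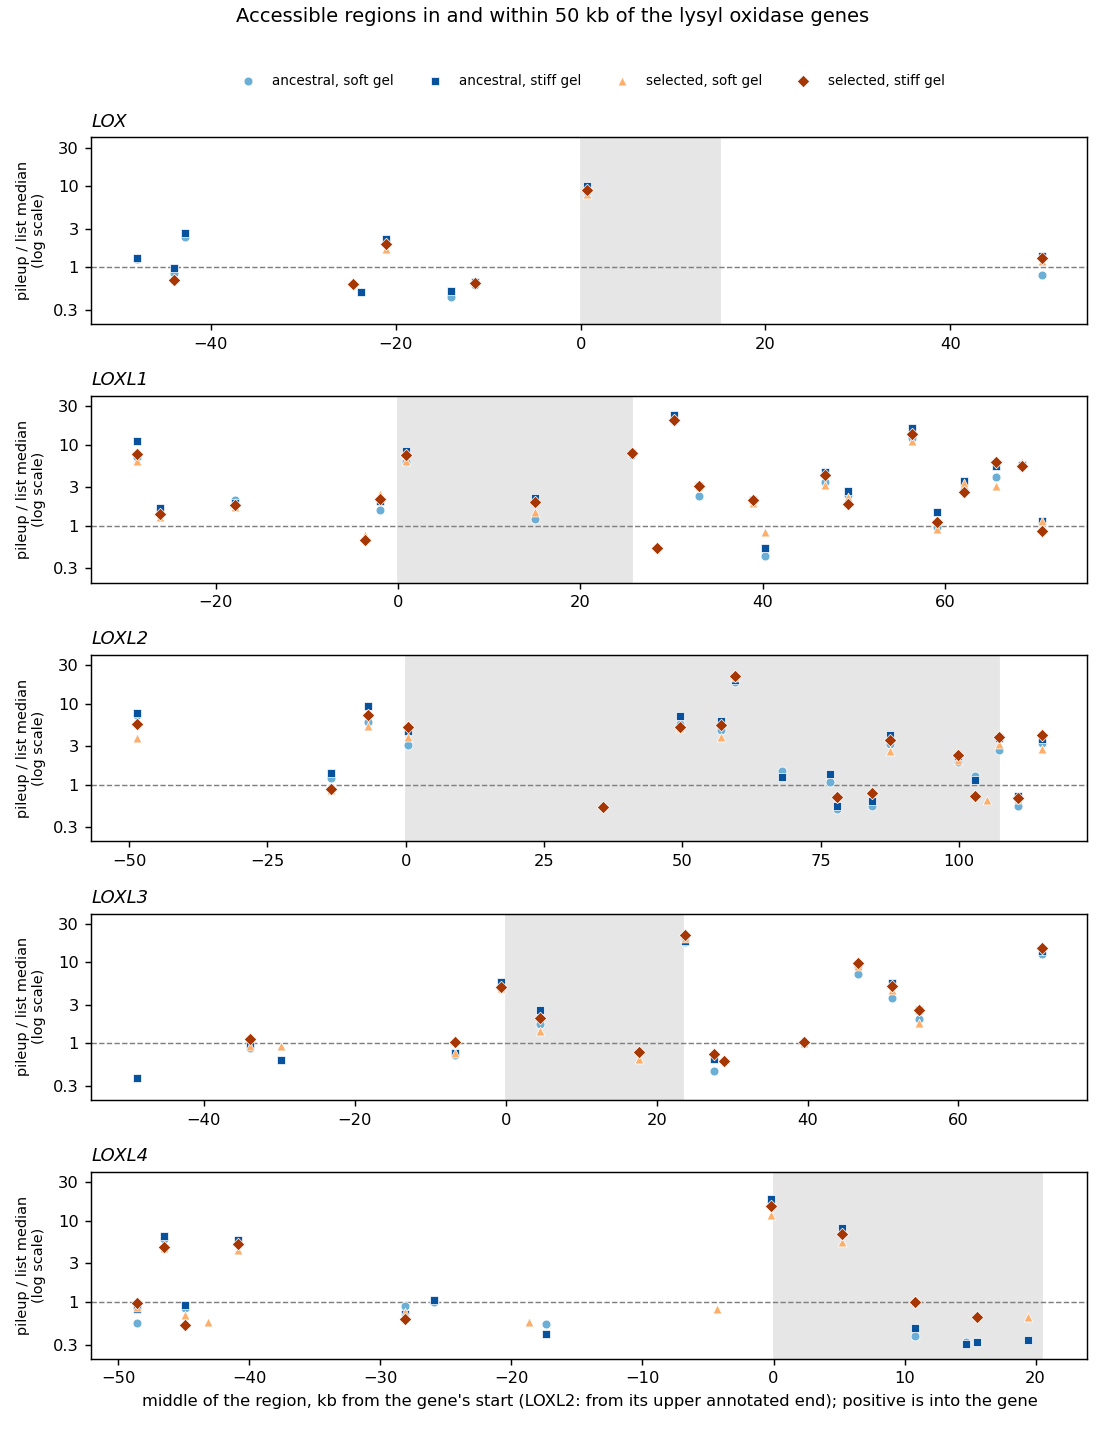
Pileup over list median (vertical axis, log scale) of each region against the distance of its middle from the gene's start in kb (LOXL2: from its upper annotated end), 1 panel a gene; symbols are the 4 lists, grey marks the gene body and the dashed line a level of 1. Left of the LOX start, the region at 42.8 kb has blue ancestral symbols only, while at LOXL1 nearly every region carries all 4 symbols.

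Across the family, 51 of the 81 regions, or 63.0%, were listed in all 4 lists, against 43.7% of all regions. Listed in both ancestral lists only were 8 regions (9.88%, against 6.39% of all), 3 at LOX, 2 at LOXL2 and 3 at LOXL4. Listed in both selected lists only were 3 (3.70%, against 9.72% of all), 1 at LOXL1 and 2 at LOXL3. Selected cells on soft gel alone had 4 (4.94%, against 13.1%), all at LOXL4 or LOXL2. No region was shared by only the 2 soft lists or only the 2 stiff lists, a pattern of 0.784% and 1.17% of all regions; 0 of 81 allows a share of up to 3.70%, taking 3 counts of the total as the limit. The lists contained a peak in 66, 70, 61 and 64 of the 81 regions, or 81.5%, 86.4%, 75.3% and 79.0%. Over all regions the shares were 61.5%, 65.7%, 74.8% and 68.6%. The family's count was lowest in selected cells on soft gel, where its share was close to that of all regions. In the other lists its share was above that of all regions. None of these shares was matched for level, and the family's regions had median levels of 2.045 to 2.294, beside 1.0 over each whole list. The bar chart of patterns sets the genes against all regions.

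**Figure D3:**
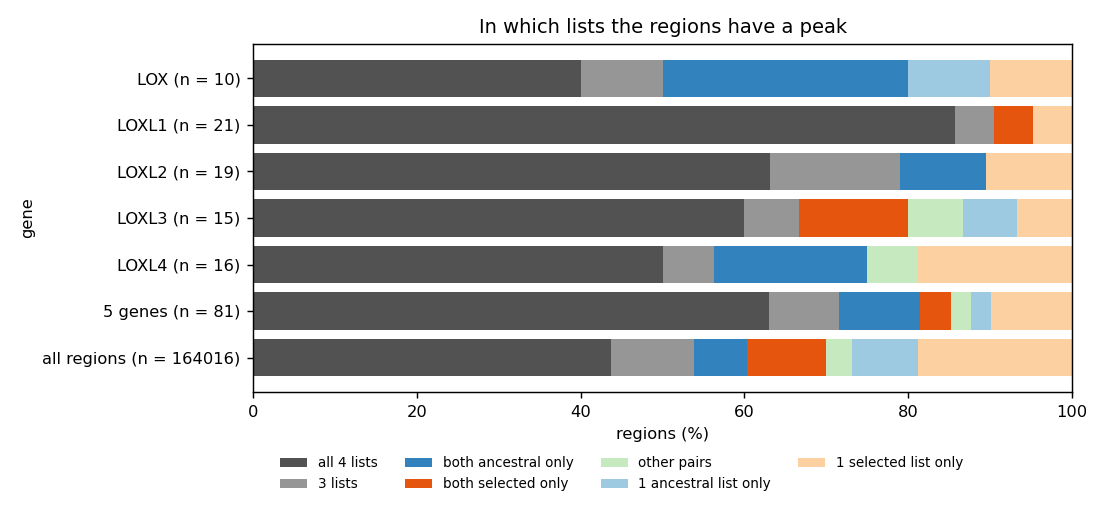
Share of regions (horizontal axis, percent) by the lists in which they have a peak, for each gene, the 5 genes together and all 164016 regions. LOX, LOXL2 and LOXL4 have dark blue bars (both ancestral only) and no dark orange ones (both selected only), and LOXL1 has the largest share in all 4 lists, 18 of 21.

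Soft gel is where the series compares the populations. Of the 67 peaks of the family in the selected list, 11 (16.4%) had no overlapping peak in the ancestral list, where the share over the whole list was 35.8%. Of the 73 peaks in the ancestral list, 15 (20.5%) had no partner in the selected one, where the whole list had 21.7%. Unshared selected peaks were thus a smaller share here than over the list, and unshared ancestral peaks about the same share. The family's regions had median levels of 2.045, 2.242, 2.294 and 2.116 in the 4 lists, beside 1.0 over each whole list. Here and in the later comparisons, family and whole-list shares were not matched for level. The genes differed: at LOX 4 of 8 ancestral peaks and 0 of 4 selected peaks were without partner, at LOXL1 0 of 21 and 2 of 22, at LOXL2 6 of 20 and 2 of 15, at LOXL3 1 of 10 and 3 of 12, and at LOXL4 4 of 14 and 4 of 14. By the same limit of 3 counts, 0 of 4 allows a share of up to 75.0% and 0 of 21 one of up to 14.3%.

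These counts can be set beside the chromosome within 5 Mb of each gene, leaving out the gene's own window. Around LOX 57 of 203 ancestral peaks (28.1%) and 28 of 175 selected peaks (16.0%) had no partner, so LOX lies in a stretch that leans the same way. Around LOXL4 the stretch leaned to selected cells, with 293 of 738 selected peaks (39.7%) and 55 of 505 ancestral peaks (10.9%) unshared. Of the 14 regions of the family listed in ancestral and not in selected cells on soft gel, 9 would have reached the lowest listed pileup of the selected list at the same level and 5 would not. Of these 14, 5 would have reached 2 times that pileup. All 9 regions listed in selected and not in ancestral cells on soft gel would have reached 2 times the lowest ancestral pileup. On stiff gel 9 of 13 such ancestral and 7 of 7 such selected regions would have reached the limit. Selected lists begin at levels of 0.529 and 0.464 and ancestral ones at 0.279 and 0.28. Reaching the ancestral limit was therefore fixed in advance for regions listed in selected cells.

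Where both soft lists had a peak (52 regions), the ratio of selected to ancestral level was at least 2-fold upward at 1 region, beside 13.2% of the 78948 regions with both peaks, and at least 2-fold downward at 0, beside 1.88%. The 1 region is the broad one in the later part of LOXL4, with a ratio of 2.73 (1.80 to 4.18), and its fold enrichment as deposited was 2.54 in ancestral and 3.80 in selected cells. The median log2 ratio was −0.06 over the family and 0.15 over all regions. Restricted to regions listed in all 4 lists with a mean level of at least 2, a choice made after seeing the data, the medians were −0.06 (34 regions) and −0.09 (34502 regions), close to each other. Within the family, all 4 such regions of LOXL4 were below that median, with a median of −0.37, and 5 of the 6 of LOXL3 above it, with a median of 0.25. At the LOXL4 start the ratio was 0.704 (0.641 to 0.772), at the 15.3 percentile of strong regions, and around LOXL4 the median log2 ratio within 5 Mb was 0.15. The other starts had ratios of 0.949 (0.843 to 1.07) at LOX, 1.02 (0.893 to 1.17) at LOXL1, 1.01 (0.867 to 1.18) at LOXL3 and 1.25 (1.05 to 1.497) at LOXL2, so LOXL2 alone was above 1 beyond counting error. The LOXL2 interval did not exclude the median of all regions. Its ratio stood at the 62.0 percentile of all regions and the 89.4 percentile of strong ones. Deposited fold enrichment divides by the caller background of the same list, with a median of 16.3 (ancestral) and 13.5 (selected) on soft gel. This scale moved the log2 ratios of all regions down nearly alike, to medians of −0.92 over the family and −0.71 over all regions. All 5 starts were then lower in selected cells on soft gel, including the 3 above 1 by pileup. Their log2 ratios ran from −1.37 at LOXL4 to −0.53 at LOXL2, beside a median of −0.95 over strong regions.

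On stiff gel, 9 of 71 selected peaks (12.7%) had no ancestral partner, where the whole list had 26.8%, and 13 of 74 ancestral peaks (17.6%) had no selected one, where the whole list had 21.7%. LOX again gave 4 of 9 ancestral and 1 of 6 selected peaks without partner, and LOXL4 gave 4 of 15 and 0 of 11, which allows a share of up to 27.3%. In the 57 regions with both peaks, 2 were at least 2-fold higher in selected cells, beside 8.38% of 84204, and 0 at least 2-fold lower, beside 2.57%. Both lie in the later part of LOXL4: the broad region, with a ratio of 2.06 (1.42 to 3.00), and chr10:98252397-98252980, with a ratio of 2.08 (1.30 to 3.31) on pileups of 42 and 37. The family's median log2 ratio was −0.12, against 0.00 over all regions, and −0.12 against −0.17 over strong ones. The ratio at the LOXL4 start was 0.799 (0.738 to 0.864), at LOX 0.874 (0.787 to 0.969), at LOXL1 0.916 (0.817 to 1.03), at LOXL3 0.877 (0.762 to 1.01) and at LOXL2 1.09 (0.947 to 1.26). In the same order these stood at the 33.2, 46.8, 55.5, 47.5 and 85.0 percentile of strong regions. Scaled by the median over regions in all 4 lists, LOXL1 turned from −0.13 to 0.04 in log2 ratio and the other 4 kept their sign, and in fold enrichment all 5 were negative, from −0.92 at LOXL4 to −0.46 at LOXL2, beside a median of −0.76 over strong regions. Peaks were narrower in selected cells in 42 of the 57 regions and wider in 14, with a median log2 ratio of widths of −0.19 against −0.13 over all regions. On soft gel they were narrower in 27 of the 52 and wider in 25.

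The ancestral lists from soft and stiff gel held nearly the same regions of the family. No peak of the 73 in the soft list lacked a partner in the stiff list (0 of 73 allows a share of up to 4.11%), where the whole list had 10.3%, and 5 of 74 stiff peaks (6.76%) lacked one, where the whole list had 16.8%. None of 66 regions was 2-fold higher on soft gel, beside 0.0689% of 91389, and none 2-fold higher on stiff gel, beside 0.711%. The log2 ratio of soft to stiff was −0.26 at the start of LOX, −0.43 at LOXL1, −0.57 at LOXL2, −0.28 at LOXL3 and −0.18 at LOXL4. These are all negative on this scale, but scaled by the median over regions in all 4 lists, which shifts every ratio by 0.21, they become −0.04, −0.22, −0.36, −0.07 and 0.04, so that LOXL4 turns. The median over strong regions was −0.24, and LOX, LOXL1, LOXL2 and LOXL3 lay below it, LOXL2 at the 9.40 percentile. Peaks were narrower on soft than on stiff gel in 51 of the 66 regions, with a median log2 ratio of widths of −0.12 against −0.10 over all regions.

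In selected cells, 8 of 67 soft peaks (11.9%) had no stiff partner, where the whole list had 21.9%, and 12 of 71 stiff peaks (16.9%) had no soft one, where the whole list had 15.1%. None of 54 regions passed 2-fold in either direction, beside 0.146% (higher on soft gel) and 0.72% (higher on stiff gel) of 94976. All 12 LOXL2 regions with both peaks were lower on soft than on stiff gel, from −0.57 to −0.02 in log2 ratio with a median of −0.33, against a median of −0.11 within 5 Mb and 0.03 over all regions. Scaled by the median over regions in all 4 lists, 3 of the 12 turned to between 0.00 and 0.03 and the other 9 stayed negative. Among strong regions 8 of 10 at LOXL2 were below the median of −0.14. By pileup over list median, 10 of 11 LOXL3 regions and 41 of all 54 family regions were also lower on soft gel. In ancestral cells 15 of 17 LOXL2 regions and 59 of 66 family regions were lower on soft gel. There the median over all regions was itself −0.19, and 36 of the 66 lay below it. In selected cells 42 of the 54 lay below the all-region median of 0.03, and among strong regions 18 of 34 lay below theirs. Scaled by the median over regions in all 4 lists, the family medians were −0.016 in ancestral and −0.077 in selected cells. The shares of all regions lower on soft gel are not given here. At the LOXL2 end the ratio was 0.771 (0.640 to 0.927) in selected and 0.672 (0.588 to 0.768) in ancestral cells, and whether the difference of stiffness differs between the populations was not tested. The ratio at the LOXL4 start was 0.779 (0.700 to 0.865) in selected cells and 0.884 (0.832 to 0.939) in ancestral ones. The 4 comparisons share lists with each other, so they are not independent of each other.

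**Figure D4:**
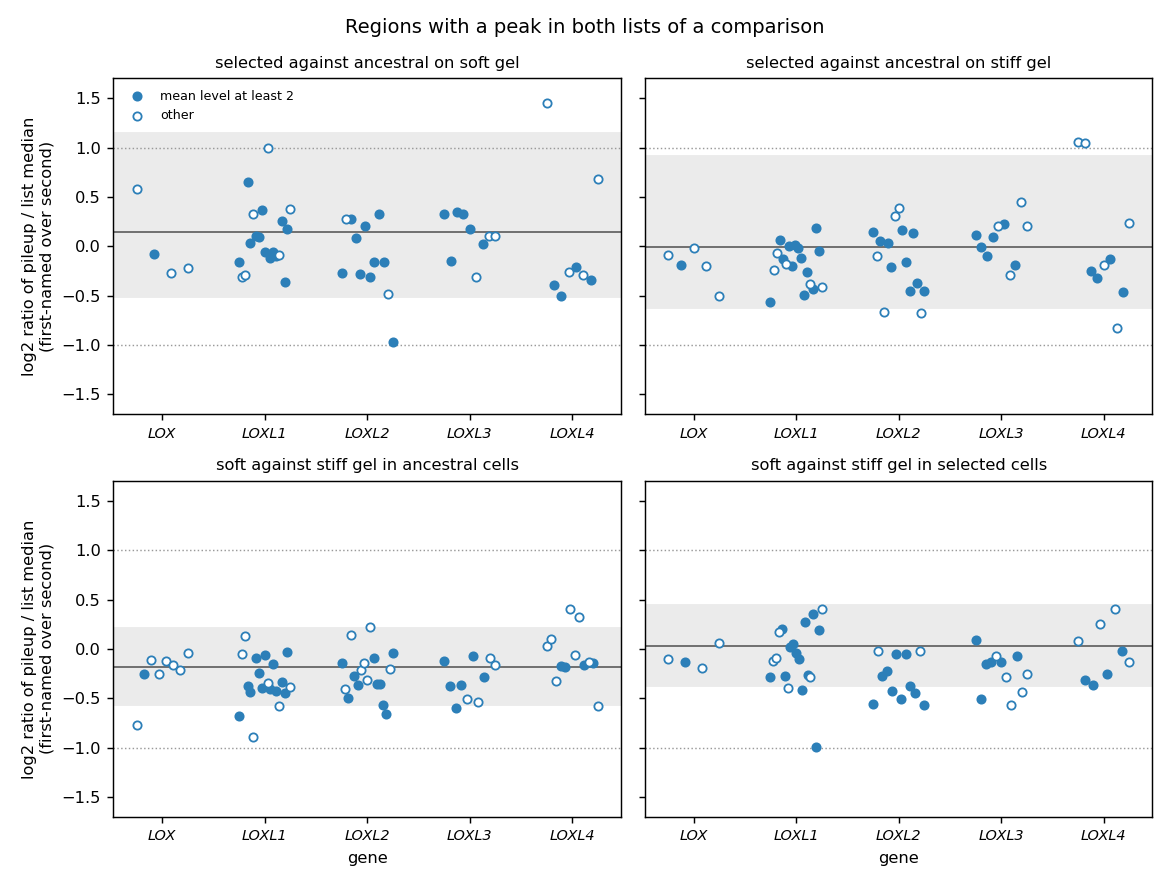
Log2 ratio of pileup over list median (vertical axis) at each region with a peak in both lists of a comparison, by gene; filled points are regions with a mean level of at least 2 in all 4 lists, the line is the median and the grey band the 10th to 90th percentile of all regions, and dotted lines mark 2-fold. The filled LOXL4 points lie below the line in both upper panels. At the lower right, all LOXL2 points and 10 of 11 LOXL3 points lie below it.

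Start regions with levels most like those of each gene were found among 13029 other genes, by the distance between the 4 log2 levels. Closest to LOX were ATF7IP, CHORDC1 and PRKAG1, to LOXL1 HMOX1, SYCP2L and IGHMBP2, and to LOXL2 PDGFRL and the pair ANKRD63 and PLCB2, which share 1 region. DOK1 shares its region with LOXL3, and ATP6V1H and RARS1 came next. AMER1, which shares its region with LOC112268307, and CLSTN1 were closest to LOXL4, with levels at AMER1 of 16.9, 18.9, 11.6 and 14.7. Such likeness was common: 1459 genes lay within a distance of 0.5 of LOX, 1414 of LOXL1, 923 of LOXL3, 540 of LOXL4 and 437 of LOXL2.

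A list of 39 genes of collagen and elastin biosynthesis and its regulators gave the pathway around the family, and 28 had a start peak in all 4 lists and 6 in none. On soft gel, 25 had more unshared peaks in the selected list and 11 in the ancestral list, beside 57.2% and 23.7% of all 20056 protein-coding genes. The largest differences toward selected cells were at ADAMTS2, a procollagen N-proteinase, with 42 selected-only and 4 ancestral-only peaks, COL5A1 with 41 and 4, and PLOD1, a collagen lysyl hydroxylase, with 20 and 1. COL5A2 with 0 and 7, FN1 (fibronectin) with 0 and 5 and FBN1 (fibrillin) with 0 and 3 leaned the other way. Of the 5 lysyl oxidase genes, 2 leaned to selected cells, 2 to ancestral cells and 1 was even.

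On stiff gel the pathway counts were 19 and 13, beside 47.3% and 31.9% of all genes. The largest differences on the selected side were again at ADAMTS2 (27 and 2) and COL5A1 (32 and 8). SNAI1, a transcription factor of epithelial-mesenchymal transition, came next (17 and 0). On soft gel it had leaned the same way, with 13 and 7, or 13 and 0 without peaks at skipped numbers. COL5A2 (1 and 10), FN1 (0 and 5) and COL1A2 (0 and 5) lay on the ancestral side on stiff gel. Of the lysyl oxidase genes, 2 leaned to selected and 3 to ancestral cells. Soft against stiff gel in ancestral cells gave 6 genes with more soft-only and 24 with more stiff-only peaks, beside 13.0% and 55.0%, with SPARC (2 and 0), ADAMTS2 (4 and 3) and COL3A1 (1 and 0) on the first side and COL5A1 (9 and 22), COL1A1 (0 and 11) and HIF1A (0 and 8, or 0 and 4 without peaks at skipped numbers) on the second. No lysyl oxidase gene leaned to soft gel there and 4 leaned to stiff gel. In selected cells the counts were 19 and 17, beside 42.6% and 27.9%, with ADAMTS2 (25 and 11), ADAMTS14 (8 and 1) and COL5A1 (14 and 7) leaning to soft gel and ELN (6 and 10), P4HA3 (0 and 4) and SNAI1 leaning to stiff gel; SNAI1 had 3 and 9, which became 3 and 2 without peaks at skipped numbers.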

How the data were processed

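The series measured chromatin accessibility by ATAC-seq in 16 samples, 4 in each of 4 groups. The submitters' processing notes name GRCh38, Bowtie2 2.4.5 and the peak caller MACS2 2.2.7.1, beside Trimmomatic 0.36, MultiQC 1.1 and FastQC 0.11.4, without settings. The authors deposited 1 peak list per group; the sources used here do not give how samples were combined or which filters applied. Read totals were not used. Per the file headers, the lists hold each peak's pileup, a coverage signal at the summit (whole numbers, not scaled), and its −log10 q. They also hold its fold enrichment (a ratio) over the caller background of the same list. These are the authors' values for each peak.

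With Python 3.11.15, pandas 2.3.3 and scipy 1.17.1, peaks overlapping by at least 1 bp were merged into regions, the highest peak of a list representing a region. Partners overlap by at least 1 bp. Regions went to a gene when a summit lay in its body or within 50 kb. Gene positions, starts and promoters came from RefSeq tables of GRCh38.p14. Shares have Clopper-Pearson intervals and levels exact Poisson intervals, and ratios a conditional binomial interval, all at 95% and for counting error only. The limit given for a count of 0 is 3 counts of the total. The merging and ratio code was tested on simulated data. With 1 list per group no test across groups was made.

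Named were all 5 genes and, for each, the start region, up to 3 of the highest regions and the 3 genes with the most similar start levels. At LOX and LOXL3 not all of the 3 highest regions beside the start were named. Of the regions listed in 1 cell population only, some were named. Pathway genes were up to 3 per comparison and direction with the largest difference of unshared peaks. Other regions were named after their values were seen. The members, gene lists and rules were chosen with earlier results of these data known. Alternatives were a limit of 10 on −log10 q, other overlaps and windows, other scalings, and another choice of peak per region.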

Additional observations from a re-analysis of the deposited data

How the results depend on the processing

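Of 120 values recomputed under alternatives, 103 stayed within the main value's counting interval or within 1.5 times the main count, and 17 moved. With a −log10 q of at least 10, the share of regions listed in ancestral cells on stiff gel was 94.2% (86.4% before). The shares of selected-only peaks were 8.16% (soft gel) and 5.77% (stiff gel), and that of soft-only peaks in selected cells was 2.04%. Among the values that did not move by this rule, ancestral-only peaks were 28.8% (soft gel) and 26.9% (stiff gel). The share of regions listed in selected cells was 66.7% on soft and 73.9% on stiff gel. Whole-list shares at this limit are not given here. With the deposited fold enrichment in place of pileup over list median, the median log2 ratios were −0.92 (selected against ancestral, soft gel), −0.71 (selected against ancestral, stiff gel) and −0.35 (soft against stiff, selected cells), against −0.71, −0.59 and −0.19 over all regions. Regions at least 2-fold higher in selected cells then numbered 0 (soft gel) and 0 (stiff gel), and 21, 10 and 1 regions were at least 2-fold lower in the same 3 comparisons. Both scales divide pileups by a value of the list, so this change moved every ratio of a comparison by nearly the same amount. Counts past 2-fold over all regions on this scale are not given here. Scaled by the median over regions in all 4 lists, the ancestral soft to stiff median was −0.016. With the peak nearest the region's middle, 1 region was at least 2-fold lower in selected cells on stiff gel and 1 in ancestral cells on soft gel, and in selected cells 1 was higher and 2 were lower on soft gel. The cause of the changes under the other alternatives was not tested. No paired analysis was possible because each group has 1 list and its columns carry no replicate numbers, and for the same reason no replicate could be left out. Low regions are limited by where each list ends: no peak below a level of 0.529 is listed for selected cells on soft gel and none below 0.464 on stiff gel. Read depth was not used.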

Other observations

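Some of the larger differences in the 5 windows lay at neighbouring genes. The region chr15:73991190-73992845 at a start of STOML1, 65.6 kb from the LOXL1 start, had levels of 4.01, 5.48, 3.12 and 6.21 (ancestral on soft, ancestral on stiff, selected on soft, selected on stiff), and its ratio of soft to stiff in selected cells was 0.502 (95% interval 0.413 to 0.607), at the 1.69 percentile of strong regions. In ENTPD4, 48.6 kb upstream of the LOXL2 end, chr8:23452232-23453206 had levels of 7.35, 7.59, 3.75 and 5.55. Its ratio of selected to ancestral on soft gel was 0.509 (0.433 to 0.597), at the 2.93 percentile of strong regions. At the start of TLX2, a homeobox gene in the LOXL3 window, chr2:74513035-74515853 was listed in selected cells only, with levels of 1.00 and 1.05.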
